A study of Mus musculus with 21 samples.

Results

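The genes described here encode the proteins of the cytosolic ribosome, in mouse natural killer (NK) cells that lacked Ikzf1, Ikzf3 or both. They were taken by symbol, as all rows of the expression table marked protein coding whose symbol began with Rpl or Rps and a digit, with Rplp or with Rpsa. Rows of the Rps6k kinases, 8 in all, were left out. This gave 75 of the 11736 genes in the table, 45 for the large subunit and 30 for the small subunit. Of 80 ribosomal proteins counted as the standard set of a mammalian ribosome, 67 were among them, 39 of 47 for the large and 28 of 33 for the small subunit. The 8 further members were the paralogues Rpl22l1, Rpl36al, Rpl39l and Rps27l, the retrogene Rps27rt, and Rpl9-ps6, Rpl10-ps3 and Rpl13a-ps1, whose symbols mark them as pseudogenes.

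RNA of 15 libraries in 4 groups was compared. The cells were NK cells sorted from mouse spleen and then held in culture with human IL-15 at 50 ng/ml, a cytokine that keeps NK cells alive. The groups were Ikzf1 KO (4 libraries, S12 to S15), Ikzf3 KO (4 libraries, S1 to S4), the double knockout of Ikzf1 and Ikzf3 (DKO, 3 libraries, S5 to S7) and Cre only (4 libraries, S16 to S19). Ikzf1 and Ikzf3 encode Ikaros and Aiolos, zinc finger transcription factors of lymphocytes. The knockouts were conditional in NK cells, and the control mice carried Cre only; the driver of Cre, the ages of the mice and pooling of animals are not given in the sources used here. The libraries are called biological replicates, with nothing to say which came from the same mouse or day.

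Values are RPKM, in which read numbers are divided by gene length and sequencing depth. A change is a log2 fold change ± SE of log2(RPKM + 0.5) from limma, which understates changes of weakly expressed genes. It was called where the Benjamini-Hochberg adjusted p over all 10032 tested genes was below 0.05. All 75 members passed the filter on low values.

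Each ribosome holds a single copy of nearly every ribosomal protein, and the cell makes these proteins in matched amounts. In mammals their mRNAs start with a run of pyrimidines, the 5′ terminal oligopyrimidine (TOP) motif, through which the kinase complex mTORC1 and the RNA-binding protein LARP1 set their translation and their stability. The mRNAs are short and abundant, and introns of many of their genes carry small nucleolar RNAs. Both features can be seen in the annotation of the members. A snoRNA gene lay within 28 of the 75 genes (37.3%), against 1.54% of 9085 other protein-coding genes tested. The median summed exon length was 1726 bases in the members and 4434 bases in the other genes.

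The stretch around the transcription start is shown for the members whose level passed a test, where an entry was found, and for 2 members with long pyrimidine runs. Each is 30 bases, 15 before the annotated start and 15 from it on, from RefSeq on GRCm38.p6. Capitals mark the longest run of C and T where it reached 8 bases.
Rpl22l1, chr3:28805493-28805522, plus strand: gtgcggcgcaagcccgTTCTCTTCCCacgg
Rpl41, chr10:128549154-128549183, minus strand: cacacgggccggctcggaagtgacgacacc
Rpl36a, chrX:134585639-134585668, plus strand: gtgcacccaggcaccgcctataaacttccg
Rps2, chr17:24720048-24720077, plus strand: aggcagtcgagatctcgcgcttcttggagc
Rps25, chr9:44407699-44407728, plus strand: tttttccgacatcttagcgaggctgctgtg
Rpl7a, chr2:26910792-26910821, plus strand: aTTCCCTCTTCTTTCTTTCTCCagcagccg
Rpl27a, chr7:109519180-109519209, plus strand: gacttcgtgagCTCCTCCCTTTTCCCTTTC
Rpl22l1 has a run of 10 pyrimidines 1 base after its annotated start, and the windows of Rpl41, Rpl36a, Rps2 and Rps25 hold no run of 8. The Rpl7a window holds the longest run found in a member, 21 bases, and that of Rpl27a holds 19. Annotated starts can lie some bases away from the start used in a cell, so a missing run in a window says nothing of the mRNA itself.

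A start region was found for 55 of the 75 members, 33 of the large and 22 of the small subunit. A run of at least 8 pyrimidines lay in the 30-base window of 23 of these 55 (41.8%), against 14.8% of 7353 other protein-coding genes tested and 13.9% of all 27025 start regions in the RefSeq table. It lay in 16 windows of the large subunit (48.5%) and in 7 of the small subunit (31.8%). The 300 bases from 250 before to 50 after the start were searched for CCGGAAGT on either strand, the core of ETS family sites. It was found in 20.0% of the 55 members with a start region, against 10.3% of the other genes tested. GCCATNTT on either strand, the core of YY1 sites, was found in 14.5% of these 55, against 10.8% of the other genes tested. The expression values of members with and without the pyrimidine run lay close together in each library: in S4, the library with the highest levels, the median deviation from the Cre only mean was 1.34 on the log2 scale for the 23 with the run and 1.44 for the 32 without.

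Libraries S3 and S4 of the Ikzf3 KO group stood apart from S1 and S2 of the same group, and every Ikzf3 KO result below rests in part on them. The targeted genes followed the labels in all libraries. Ikzf1 averaged 19.1 ± 0.662 RPKM in Ikzf1 KO and 30.3 ± 7.12 in DKO cells, against 61.9 ± 5.22 in Cre only cells, and Ikzf3 averaged 17.8 ± 2.37 in Ikzf3 KO and 21.5 ± 1.96 in DKO cells, against 41.8 ± 3.68 in Cre only cells (SD, n = 4, and n = 3 for DKO). Recovered depths were 8.6 to 21.2 megareads. The weakest member, Rpl39l, had 0 to 38 reads per library. All 9 tested NK marker genes were detected in every library. Their summed RPKM was 11207 to 12133 in Ikzf1 KO, 3566 to 13167 in Ikzf3 KO with S3 and S4 lowest, 2424 to 5171 in DKO and 10297 to 14216 in Cre only cells. Gzmb, the effector protease that makes up much of that sum, had 1841 and 1795 RPKM in S3 and S4, against 9104 and 10586 in S1 and S2. The NK markers did not fall as a set in all of these libraries. Their median deviation from the Cre only mean was -0.56 in S3 and -0.03 in S4. In S5, S6 and S7 of the DKO group it was 0.00, 0.14 and -0.22. In S12, S13, S14 and S15 of the Ikzf1 KO group, whose sums were near those of Cre only cells, it was -0.42, -0.13, -0.27 and -0.25. The 3 myeloid markers in the table summed to 79.3 and 50.6 RPKM in S3 and S4 and to at most 41.8 elsewhere. Most of that sum was Cd68, with 72.7 and 46.8 RPKM in S3 and S4. Itgam had 6.52 and 3.81, against 3.85 to 7.88 in Cre only libraries, and Lyz2 had 0 in both. In S3 and S4, 7 mRNAs of the mitochondrial genome had median deviations of -1.39 and -1.02 from the Cre only mean. The part of these in the ribosomal protein values was not tested.

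Ribosomal protein mRNAs made up about the same part of all RPKM in Ikzf1 KO cells (12.9 ± 0.263%) as in Cre only cells (12.3 ± 0.557%). They made up 15.3 ± 0.495% in DKO cells (SD, n = 3 for DKO and n = 4 for the others). In Ikzf3 KO cells the libraries lay too far apart for a mean to describe them. The share was 12.4% in S1, 13.9% in S2, 19.4% in S3 and 26.3% in S4 of the Ikzf3 KO group. It was 14.7%, 15.7% and 15.4% in the 3 DKO libraries, above all 4 Cre only libraries, which held 12.4%, 12.6%, 12.7% and 11.5%. The summed RPKM behind the share was 43367 in S5, inside the Cre only range of 38822 to 46523. It was 53077 in S6 and 50412 in S7, above that range. A share also depends on the RPKM of all other genes, and their part in the DKO shares was not tested. In bulk RNA more of these mRNAs per cell and more cells rich in them cannot be told apart.

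The 2 subunits moved together. The summed RPKM of the large subunit was 23711 ± 526 in Ikzf1 KO, 38202 ± 17568 in Ikzf3 KO, 26063 ± 2726 in DKO and 23964 ± 1866 in Cre only cells. That of the small subunit was 20368 ± 678 in Ikzf1 KO, 31483 ± 14631 in Ikzf3 KO, 22889 ± 2296 in DKO and 19658 ± 1517 in Cre only cells. Within the Ikzf3 KO group the sums of both subunits ran in the order S1, S2, S3, S4, with S1 inside the Cre only range and S2, S3 and S4 above it for each. In S4 a typical member stood at 2.49 times its Cre only mean in the large subunit and 2.74 times in the small subunit. The ratio of the large to the small subunit sum was 1.15 to 1.18 in Ikzf1 KO, 1.16 to 1.29 in Ikzf3 KO, 1.13 to 1.15 in DKO and 1.19 to 1.26 in Cre only libraries, so that neither the Ikzf1 KO nor the DKO range overlapped with that of Cre only.

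**Figure D1:**
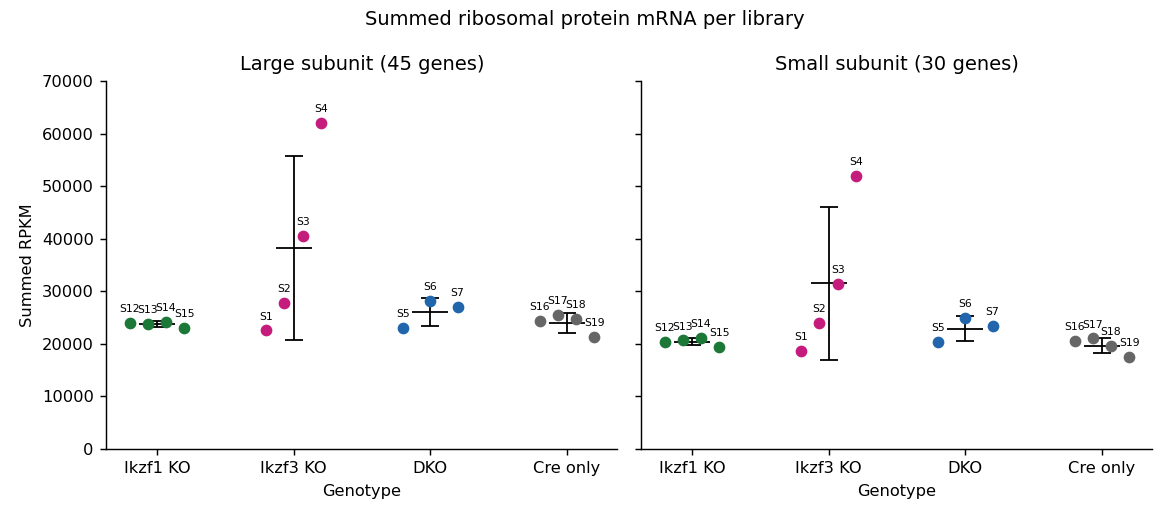
Summed RPKM (vertical) of the 45 large subunit genes (left) and the 30 small subunit genes (right) in each library, by genotype; bars show mean and SD. S3 and S4 lie above all other libraries for both subunits, at 40521 and 61993 for the large subunit, while S1 lies among the Cre only libraries.

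Rplp1, a stalk protein that helps recruit translation factors to the ribosome, was the highest of all members, with 4483, 3907, 3973 and 4096 RPKM in the Ikzf1 KO libraries, 4027, 4803, 8549.8 and 12038 in the Ikzf3 KO libraries, 4597, 5421 and 5212 in the DKO libraries and 4109.7, 4458, 4259 and 3838 in the Cre only libraries. The DKO libraries lay above all Cre only libraries, with a change that missed the threshold (0.28 ± 0.29, limma adjusted p = 0.545). Rplp0 and Rplp2, the other stalk proteins, averaged 1972 ± 228 and 615 ± 19.5 RPKM in DKO cells, against 1855 ± 110.0 and 613 ± 86.4 in Cre only cells. After Rplp1 came Rplp0 (mean of 15 libraries 2046 RPKM) and Rpl17 (2012) in the large subunit, and Rps15 (2720.1) and Rps14 (1805) led the small subunit. The lowest members were Rpl39l (0.882), Rpl13a-ps1 (1.01) and Rpl10-ps3 (2.37) in the large and Rps27rt (4.25), Rps19 (176) and Rps25 (206) in the small subunit. Values of the paralogues and pseudogenes depend on how the authors' counting shared reads between near-identical copies, and so do those of the parent genes to a smaller extent. Rpl23a, a large subunit protein named after its values were seen, had 10.3, 9.44 and 9.23 RPKM in DKO libraries, all below the 11.9, 13.7, 13.0 and 11.3 in Cre only libraries (-0.35 ± 0.31, limma adjusted p = 0.468).

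In Ikzf1 KO cells no ribosomal protein gene passed the test against Cre only cells. The limma test called 0 of 45 large and 0 of 30 small subunit genes, where 6.32% of all genes tested were called, 3.54% higher and 2.78% lower. At an unadjusted p below 0.05 there was 1 gene in each subunit, both higher. The median log2 change was -0.03 for the large and 0.03 for the small subunit, beside -0.01 for all genes. The groups did not overlap, Ikzf1 KO being higher, for 4 large and 6 small subunit genes (8.89% and 20.0%), against 11.6% of all genes.

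Rpl28, a large subunit protein named here after its values were seen, had 737, 574, 599.8 and 632 RPKM in Ikzf1 KO libraries, against 499, 508, 499 and 481 in Cre only libraries (0.35 ± 0.16, limma adjusted p = 0.226). All Ikzf1 KO libraries were above all Cre only libraries, but the change missed the threshold. Rps25, a small subunit protein that some viral and cellular mRNAs need for internal initiation, had 183, 195, 193 and 185 RPKM in Ikzf1 KO libraries, against 159, 151, 149 and 158 in Cre only libraries, also without overlap (0.29 ± 0.20, limma adjusted p = 0.499). Both passed in the fit without the Ikzf3 KO group, a choice made after seeing the data, with adjusted p = 0.0320 for Rpl28 and 0.0458 for Rps25 at the same changes. That fit called 1 large and 2 small subunit genes higher, where 7.49% of all genes were called higher.

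Rpl38, a large subunit protein which in mouse embryos favours translation of certain homeobox mRNAs, averaged 540.3 ± 52.2 RPKM in Ikzf1 KO cells and 673 ± 118 in Cre only cells, with overlapping libraries (-0.31 ± 0.24, limma adjusted p = 0.581).

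In Ikzf3 KO cells 4 genes rose against Cre only cells: Rpl22l1 and Rpl41 of the large and Rps25 and Rps2 of the small subunit. None fell. In all, 14.2% of the genes tested were called in this comparison, 6.30% higher and 7.88% lower, so that 2 of 45 and 2 of 30 are near the share of the whole table. Every member had a positive change all the same, with medians of 0.53 (large) and 0.61 (small) beside -0.02 for all genes, and 28 large and 21 small subunit genes had an unadjusted p below 0.05. The groups did not overlap for 5 large and 4 small subunit genes (11.1% and 13.3%), against 7.68% of all genes that were higher without overlap.

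These numbers depended on single libraries. Without S3 and S4 the medians were 0.07 and 0.11, and Rpl22l1 was the 1 member called, where 3.53% of all genes were called higher. Without S1 the limma test called 39 large and 28 small subunit genes higher, where 14.2% of all genes were called higher, and without S2 it called 11 and 9, where 10.5% were called higher. Without S3 it called 1 large and 0 small subunit genes, where 3.76% were called higher.

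**Figure D2:**
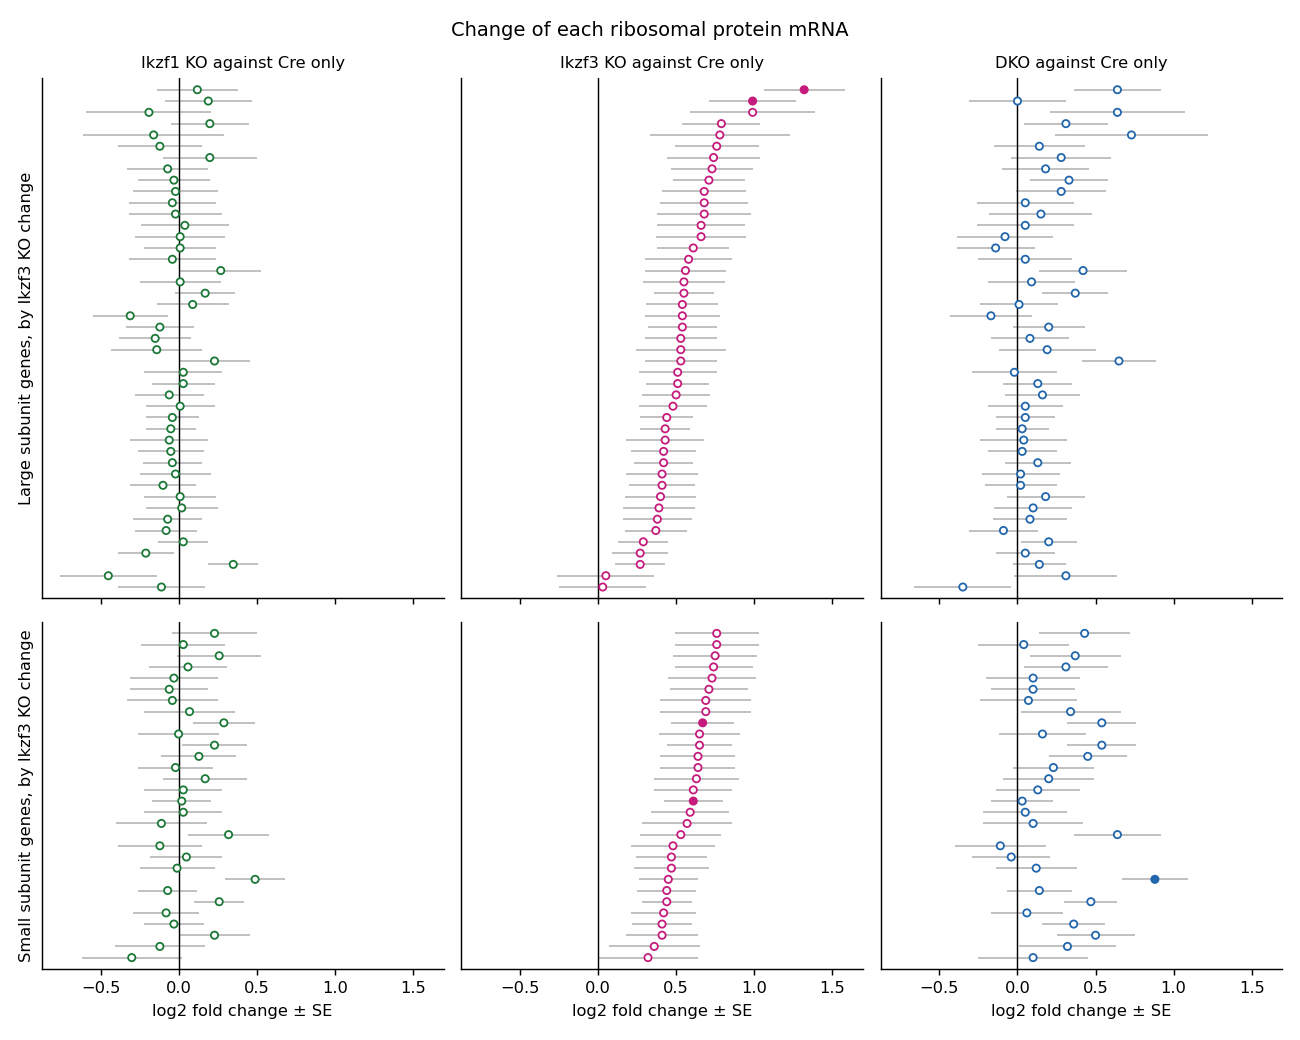
Log2 fold change ± SE (horizontal) of each of the 45 large subunit (top) and 30 small subunit genes (bottom), 1 row per gene in the order of its Ikzf3 KO change, in Ikzf1 KO, Ikzf3 KO and DKO cells against the same Cre only libraries; filled points passed the limma test. All points of the middle panels lie right of 0, from 0.03 to 1.32, with wide errors, while most points of the DKO panels lie nearer to 0.

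Rpl22l1 showed the largest change. It is the paralogue of Rpl22, an RNA-binding large subunit protein that mice need for the development of αβ T cells, and in mouse cells Rpl22 holds down Rpl22l1 mRNA. Rpl22l1 had 65.0, 72.6, 87.1 and 159 RPKM in Ikzf3 KO libraries, against 35.5, 25.5, 43.2 and 41.4 in Cre only libraries. All 4 Ikzf3 KO libraries, S1 and S2 included, lay above all Cre only libraries. The log2 change was 1.32 ± 0.26 (limma adjusted p = 0.00496), and without S3 and S4 it was 0.94 (adjusted p = 0.0188). Over 28 alternatives its adjusted p ran from 0.000915 to 0.0597, and the call was lost without S16 and S17.

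Rpl22 itself had 184, 226, 369 and 647 RPKM in Ikzf3 KO libraries, against 242, 244, 221 and 177 in Cre only libraries, and these overlapped (0.53 ± 0.29, limma adjusted p = 0.212). Its high values were those of S3 and S4, and without them its change was -0.10. Rpl22l1 thus stood at 35.3%, 32.1%, 23.6% and 24.6% of Rpl22 in Ikzf3 KO libraries, against 14.7%, 10.4%, 19.5% and 23.4% in Cre only libraries. The ratio was highest in S1 and S2, the Ikzf3 KO libraries with the lower ribosomal protein sums. The difference of the means was 11.9 percentage points, with no overlap (exact permutation test, 2-sided, p = 0.0286, the smallest that 4 against 4 can give). Adjusted over the 12 comparisons of 4 paralogue pairs, the exact permutation p was 0.343.

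Rpl22l1 in DKO cells had 42.5, 67.1 and 60.6 RPKM, of which S5 lay inside the Cre only range (0.64 ± 0.28, limma adjusted p = 0.125). In Ikzf1 KO cells it had 32.6, 44.5, 42.1 and 37.3 RPKM, level with Cre only cells (0.12 ± 0.26, limma adjusted p = 0.885). The Rpl22l1 to Rpl22 ratio was 22.3 ± 2.94% in DKO and 19.6 ± 1.15% in Ikzf1 KO cells, against 10.4% to 23.4% in the Cre only libraries.

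Rpl41, which encodes a very short, basic large subunit peptide, had 506, 656, 951 and 1729 RPKM in Ikzf3 KO libraries, against 359, 454, 541 and 402 in Cre only libraries. S1 lay inside the Cre only range and the other 3 above it. The change was 0.99 ± 0.28 (limma adjusted p = 0.0350), and it missed the threshold when S3, S4, S16, S17 or S19 was left out (without S3 and S4, 0.41 and adjusted p = 0.139). In DKO cells Rpl41 had 404, 461 and 438 RPKM, within the Cre only range, and it was lower in DKO than in Ikzf3 KO cells (-0.99 ± 0.31, limma adjusted p = 0.0365), a call lost without S3, S5, S6 or S7. Its departure from additivity of the 2 deletions was -1.18 ± 0.42 (limma adjusted p = 0.118).

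Rps25 had 173, 227, 225 and 414 RPKM in Ikzf3 KO libraries, against 159, 151, 149 and 158 in Cre only libraries. The groups did not overlap (0.67 ± 0.20, limma adjusted p = 0.0400). Rps2, which lies near the entry of the mRNA channel, had 934, 1058, 1571 and 1703 RPKM in Ikzf3 KO libraries, against 821, 849, 839 and 828 in Cre only libraries, again without overlap (0.61 ± 0.19, limma adjusted p = 0.0417). Both calls were lost under most alternatives, 15 of 28 for Rps25 and 18 of 28 for Rps2. Leaving out S3, S7 or any 1 Ikzf1 KO or Cre only library ended both, and leaving out S4 or S6 ended that of Rps2. Without S3 and S4 the changes were 0.36 (Rps25) and 0.25 (Rps2).

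**Figure D3:**
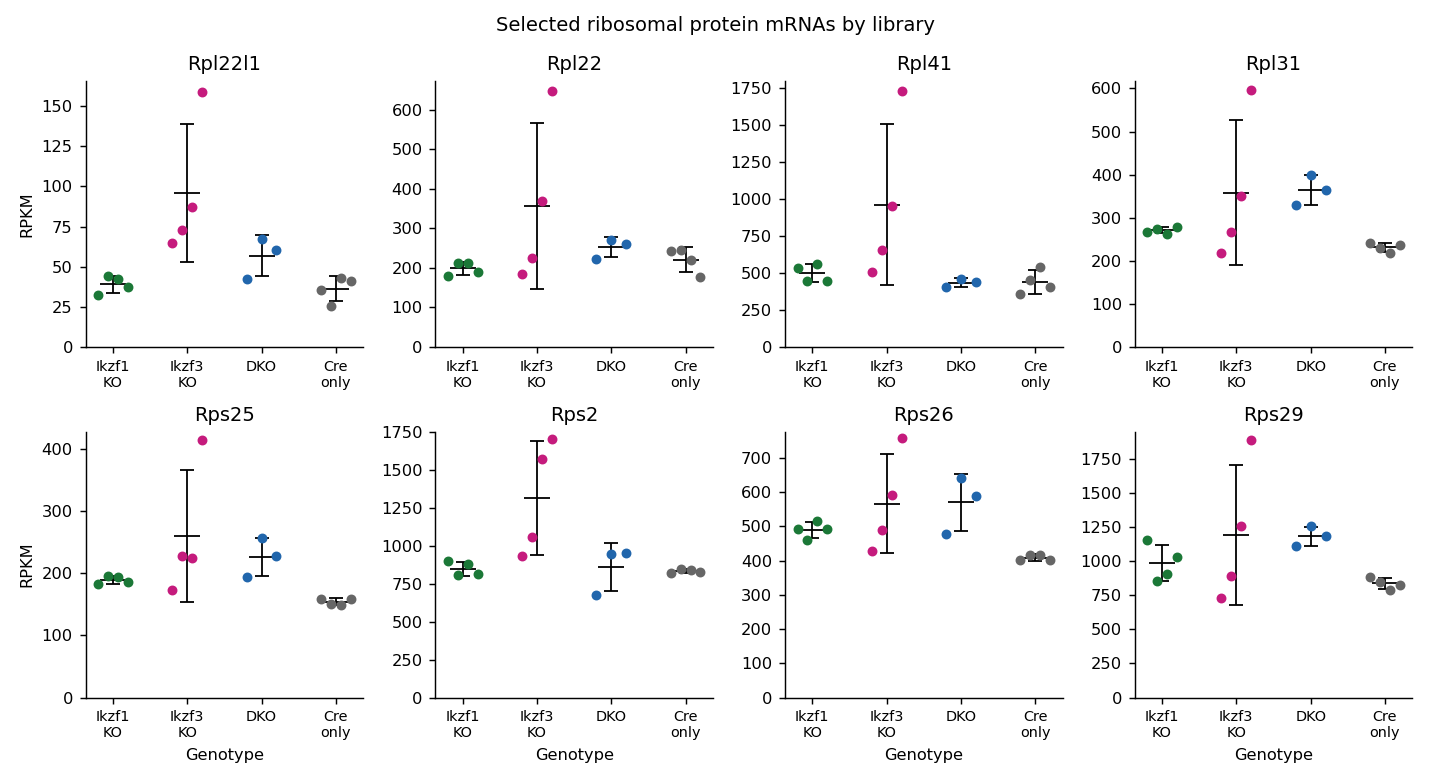
RPKM of 8 members in each library by genotype, with mean and SD bars; each panel has its own axis from 0. Rpl22l1 lies above Cre only in all 4 Ikzf3 KO libraries, Rpl22 in S3 and S4, and Rpl31, Rps25, Rps26 and Rps29 lie above Cre only in every DKO library.

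Among the large subunit proteins that bind Mdm2 when they are not built into ribosomes, and so tie ribosome assembly to p53, Rpl5 had 254, 288, 375 and 649 RPKM in Ikzf3 KO libraries, against 261, 252, 261 and 241 in Cre only libraries (0.53 ± 0.23, limma adjusted p = 0.122). Rpl11 had 338, 392, 521 and 758 RPKM in Ikzf3 KO libraries, against 349.5, 350.0, 347 and 301 in Cre only libraries (0.51 ± 0.20, limma adjusted p = 0.0972). In both genes S1 was within the range of Cre only libraries and S4 was highest.

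Rps6, the small subunit protein phosphorylated by the S6 kinases, had 468, 541, 733 and 1140.3 RPKM in Ikzf3 KO libraries, against 511, 502, 512 and 500.5 in Cre only libraries (0.42 ± 0.21, limma adjusted p = 0.179). Rpsa, known also as a laminin receptor precursor, had 670.4, 789.7, 1247 and 1881 RPKM in Ikzf3 KO libraries, against 663, 702, 705 and 643 in Cre only libraries (0.64 ± 0.24, limma adjusted p = 0.0886). In both genes S2, S3 and S4 lay above all Cre only libraries, and S4 was highest.

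Rps27l, the paralogue of Rps27 and in human cells a p53 target, differed from this order. It had 194, 281, 143 and 331 RPKM in Ikzf3 KO libraries, against 187, 161, 126 and 157 in Cre only libraries (0.53 ± 0.26, limma adjusted p = 0.168). Rps27 had 679, 879.6, 1197 and 2291 RPKM in the same Ikzf3 KO libraries, against 882, 916, 736 and 575 in Cre only libraries. Rps27l was therefore 28.6%, 32.0%, 11.9% and 14.5% of Rps27 in Ikzf3 KO libraries, against 21.2%, 17.6%, 17.1% and 27.3% in Cre only libraries, low in S3 and S4 (exact permutation test of the group means, 2-sided, p = 0.914).

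In DKO cells few members differed from Cre only cells by the test. The limma test called 0 of 45 large and 1 of 30 small subunit genes, the 1 being higher, where 18.7% of all genes were called, 8.06% higher and 10.6% lower. The median log2 change was 0.10 for the large and 0.18 for the small subunit, beside 0.00 for all genes, and 38 of 45 and 28 of 30 changes were positive. All 3 DKO libraries lay above all Cre only libraries for 6 large subunit genes (13.3%) and 11 small subunit genes (36.7%), against 16.1% of all genes.

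Rpl31 and Rps26 had larger changes in DKO cells than most members and are both linked to Diamond-Blackfan anaemia in human. The 15 members listed for that anaemia had a median log2 change of 0.16 in DKO cells, beside 0.10 for the large and 0.18 for the small subunit. Rpl31, named after its values were seen, had 330.1, 400.2 and 365 RPKM in DKO libraries, against 242, 229, 217 and 237 in Cre only libraries (0.65 ± 0.24, limma adjusted p = 0.0765). Rps26 had 478, 642 and 588 RPKM in DKO libraries, against 400.5, 417, 416 and 401 in Cre only libraries (0.47 ± 0.17, limma adjusted p = 0.0754). Neither gene's DKO libraries overlapped with Cre only libraries, and both missed the threshold. Rps25 had 194, 256 and 227 RPKM in DKO libraries, all above the Cre only values given before (0.54 ± 0.22, limma adjusted p = 0.101). Rps29, also named after its values were seen, had 1112, 1254 and 1181 RPKM in DKO libraries, against 886, 846, 788 and 828 in Cre only libraries (0.50 ± 0.25, limma adjusted p = 0.182). S5 was the lowest DKO library in each of these genes. In Ikzf1 KO cells Rps26 had 493, 459, 514 and 491 RPKM, likewise above all Cre only libraries (0.26 ± 0.16, limma adjusted p = 0.429).

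The spread estimate of the 15-library fit includes S3 and S4. Without the Ikzf3 KO group, a choice made after seeing the data, limma called 6 large and 11 small subunit genes higher in DKO than in Cre only cells, where 15.9% of all genes were called higher. The changes are the same, and the errors smaller. Among those called were Rpl31 (adjusted p = 0.000190), Rpl22l1, Rps27l, Rps25, Rps29, Rps26, Rps20, Rps12, Rps19, Rpl15, Rps3a1, Rpl14, Rpl35 and Rplp1, with changes from 0.65 (Rpl31) to 0.28 (Rplp1). Without S3 and S4 the counts were 6 and 10, where 1701 of all 10032 genes were called higher, and without S4 alone 3 and 6, where 10.2% were called higher.

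Other RNAs moved with the DKO group. T cell markers had a summed RPKM of 203 to 465 in DKO, against 27.8 to 104 in Cre only libraries, over 8 genes in the table. Cd3e, a chain of the T cell receptor complex, had 24.8, 42.4 and 44.8 RPKM in DKO libraries, against 3.10, 2.50, 0.237 and 0.240 in Cre only libraries. Cd3d and Trac were also higher in DKO without overlap. Cd3g overlapped, with 30.2 to 56.3 RPKM in DKO and 8.01 to 49.1 in Cre only libraries. Lef1 averaged 5.82 RPKM in DKO and 6.08 in Cre only cells. Of the weak markers, Cd4 and Cd6 averaged higher in DKO and Cd8a lower (0.0438 against 0.293 RPKM). Of 5 T cell markers tested 3 rose, where 8.06% of all genes were called higher. The 1 B cell marker tested (Cd79b, at most 2.23 RPKM) rose, also in Ikzf1 KO cells. Both myeloid markers tested, Cd68 and Itgam, fell, where 10.6% of all genes were called lower. Lyz2, the other myeloid marker in the table, did not pass the filter. It went the other way, with 0.918, 1.94 and 1.28 RPKM in DKO libraries, against 0 in every Cre only library. The mRNAs of the mitochondrial genome lay above the Cre only mean by medians of 1.08, 0.80 and 0.65 in S5, S6 and S7. The part of each in the ribosomal protein values was not tested.

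Against Ikzf1 KO cells, DKO cells showed no called member: limma called 0 large and 0 small subunit genes, where 7.48% of all genes were called, 3.76% higher and 3.72% lower, and 1 large and 0 small subunit genes had an unadjusted p below 0.05. The medians were 0.12 and 0.20, beside -0.01 for all genes. Without the Ikzf3 KO group 5 large and 5 small subunit genes were called higher in DKO, where 8.50% of all genes were called higher.

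Against Ikzf3 KO cells, 2 large subunit genes were lower in DKO cells and no small subunit gene was called, where 20.1% of all genes were called, 10.2% higher and 9.85% lower. They were Rpl41, given before, and Rpl36a, a large subunit protein near the site where tRNA leaves. Rpl36a had 165, 247 and 242 RPKM in DKO libraries, against 236, 281, 435 and 591 in Ikzf3 KO libraries, and these overlapped (-0.75 ± 0.25, limma adjusted p = 0.04995). The call was lost in 24 of 28 alternatives, among them leaving out any 1 library other than S1 or S2 (-0.26 without S3 and S4). The medians were -0.39 for the large and -0.37 for the small subunit, beside 0.00 for all genes. Without S3 and S4 these medians were 0.05 and 0.09, and limma called 1 large and 3 small subunit genes higher in DKO, where 10.4% of all genes were called higher. Without S1 it called 18 and 10 lower in DKO, where 15.1% of all genes were called lower. The direction of this comparison thus followed which Ikzf3 KO libraries were in it.

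No member was called for a departure of the DKO change from the sum of the single-knockout changes (0 of 45 and 0 of 30 called by limma, where 6.55% of all genes were called, 3.63% higher and 2.92% lower). At an unadjusted p below 0.05 there were 3 large and 1 small subunit genes, all below the sum. The medians were -0.38 and -0.42, beside 0.00 for all genes, and they too carry the values of S3 and S4. All comparisons with Cre only cells share the same 4 control libraries.

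Other parts of the translation machinery did not move as one with the ribosomal proteins. In the Ikzf3 KO libraries S3 and S4, the median deviation from the Cre only mean was 0.67 and 1.32 for the large subunit and 0.67 and 1.45 for the small subunit. It was 0.46 and 1.17 for 13 other TOP mRNAs, most of which encode translation factors, and 0.68 and 1.26 for 56 ribosomal protein pseudogenes, whose reads may come from the parent mRNAs. The list of ribosome biogenesis factors lay on the other side, with medians of -1.76 and -1.80 over 36 genes, and 25 initiation factors lay at -0.20 and -0.11. In S1 and S2 biogenesis factors lay at 0.30 and 0.23.

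Of the biogenesis factors 1 rose and 0 fell in Ikzf3 KO against Cre only, where 6.30% and 7.88% of all genes did. Their median was -0.73, and 0.26 without S3 and S4. The one that rose was Polr1c, a subunit shared by RNA polymerases I and III, with 36.9, 41.5, 40.2 and 49.2 RPKM in Ikzf3 KO libraries, against 29.3, 29.6, 28.9 and 28.6 in Cre only libraries (0.51 ± 0.11, limma adjusted p = 0.00710). It stood above Cre only cells in all 4 libraries. Ubtf, which drives transcription of ribosomal RNA genes, had 34.6, 33.4, 9.45 and 8.98 RPKM in Ikzf3 KO libraries, against 38.3, 42.3, 34.1 and 37.0 in Cre only libraries (-1.07 ± 0.35, limma adjusted p = 0.0577). Bysl, a factor of small subunit assembly, had 16.8, 16.4, 2.04 and 2.05 RPKM in Ikzf3 KO libraries, against 15.1, 18.8, 14.2 and 15.8 in Cre only libraries (-1.31 ± 0.53, limma adjusted p = 0.102). Myc, a transcription factor that drives ribosome production and is named after its values were seen, had 60.5, 62.9, 7.11 and 10.5 RPKM in Ikzf3 KO libraries, against 72.3, 75.2, 65.7 and 45.3 in Cre only libraries. In all 3 of these genes S3 and S4 were low, and S1 and S2 lay near Cre only values, in reverse to most ribosomal protein mRNAs.

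**Figure D4:**
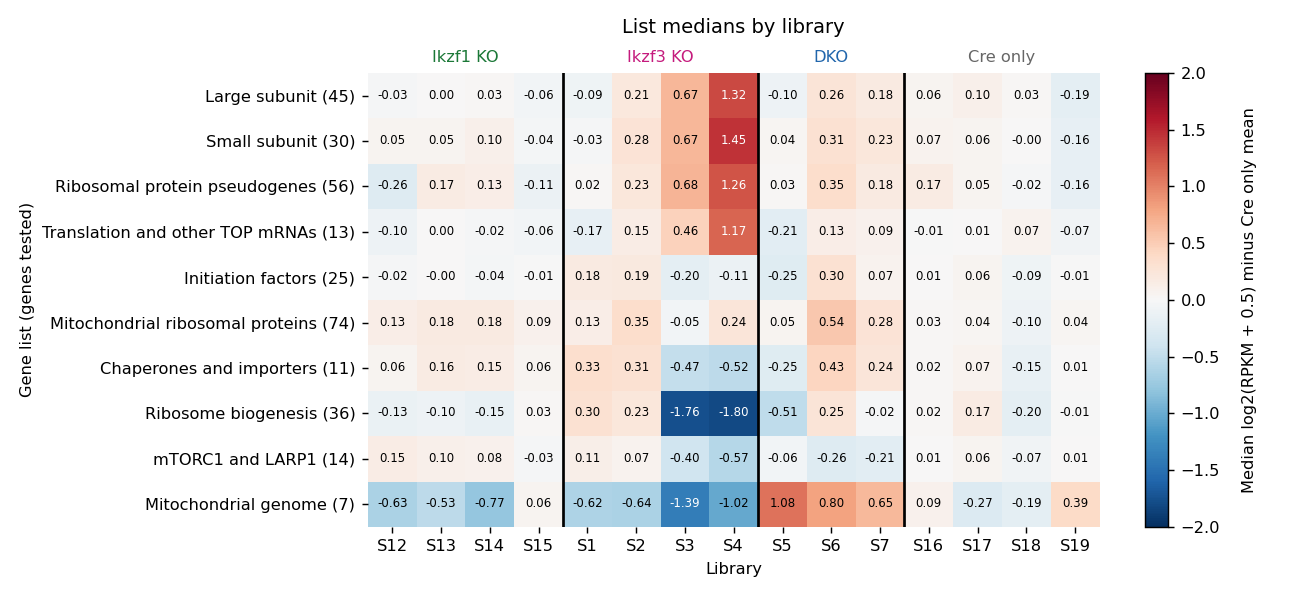
Median deviation from the Cre only mean, in log2(RPKM + 0.5), of the 2 subunits and of related gene lists (rows, with the number of genes tested) in each library (columns, by genotype). In S3 and S4 the ribosomal proteins, their pseudogenes and the other TOP mRNAs are high while ribosome biogenesis is at -1.76 and -1.80; DKO libraries are high for the mitochondrial genome.

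Of the other TOP mRNAs, 1 of 13 rose in Ikzf3 KO against Cre only cells and 0 fell, where 6.30% and 7.88% of all genes did. Their median was 0.41 (-0.04 without S3 and S4). Eef1g, part of the complex that reloads the elongation factor carrying tRNA, had 329, 356, 354 and 347 RPKM in Ikzf3 KO libraries, against 254, 264, 253 and 263 in Cre only libraries (0.42 ± 0.11, limma adjusted p = 0.0181). Its 4 Ikzf3 KO libraries lay close together, without the S1 to S4 order. Npm1, a nucleolar chaperone that also stands in this list, had 505, 489.7, 668 and 958 RPKM in Ikzf3 KO libraries, against 406, 375, 374 and 389 in Cre only libraries (0.71 ± 0.23, limma adjusted p = 0.0509), and was highest in S3 and S4. In DKO cells 2 of the 13 fell against Cre only cells, where 10.6% of all genes were called lower. Eef2, the factor that moves the ribosome along the mRNA, had 1706, 1419.5 and 1699 RPKM in DKO libraries, against 2081, 2271, 2909 and 2501 in Cre only libraries (-0.60 ± 0.18, limma adjusted p = 0.0324). Pabpc1, the cytoplasmic poly(A)-binding protein, also fell (-0.67 ± 0.16, limma adjusted p = 0.00921). In S5, S6 and S7 the ribosomal protein medians were -0.10, 0.26 and 0.18 for the large and 0.04, 0.31 and 0.23 for the small subunit.

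Rack1, a ribosomal protein of the small subunit that the symbol rule does not take in, was likewise highest in S3 and S4. This scaffold protein had 571, 753, 986 and 1598 RPKM in Ikzf3 KO libraries, against 597, 607, 645 and 542 in Cre only libraries (0.60 ± 0.24, limma adjusted p = 0.0936).

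Mitochondrial ribosomal proteins, encoded in the nucleus for a separate ribosome, rose for 7 of 74 genes in DKO against Cre only cells and fell for none (median 0.33), where 8.06% of all genes were called higher. Without S3 and S4 35 of 74 rose, where 1701 of all 10032 genes were called higher. They rose for 9 of 74 in Ikzf3 KO cells (median 0.14; 2 rose and 1 fell without S3 and S4), where 6.30% of all genes were called higher, and S3 stood at -0.05 and S4 at 0.24, so they did not share the high values of the cytosolic ribosomal proteins in S3. By limma none of the 74 passed in Ikzf1 KO cells, and 7 rose without S3 and S4, where 8.44% of all genes were called higher.

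The remaining lists gave few calls against Cre only cells. Of all genes tested 3.54% were called higher and 2.78% lower in Ikzf1 KO cells. The shares were 6.30% and 7.88% in Ikzf3 KO and 8.06% and 10.6% in DKO cells. In Ikzf1 KO cells no gene passed among 25 initiation factors, 11 chaperones and importers of ribosomal proteins, 14 genes listed for mTORC1, its targets and binders of TOP mRNAs (the mTORC1 and LARP1 list), 13 transcription factors listed for ribosomal protein genes and 16 genes of the p53 response. In Ikzf3 KO cells 2 initiation factors rose, 0 chaperones passed, 1 of the mTORC1 and LARP1 list rose (Tial1, an RNA-binding protein, 0.61 ± 0.11, limma adjusted p = 0.00337) and 1 fell (Eif4ebp2, a repressor of translation initiation that mTORC1 phosphorylates, -0.62 ± 0.14, limma adjusted p = 0.00973), 1 transcription factor fell (Mnt, which opposes Myc, -0.69 ± 0.20, limma adjusted p = 0.0385) and 2 p53 genes fell. In DKO cells 1 initiation factor rose and 2 fell, 0 chaperones passed, 2 of the mTORC1 and LARP1 list rose (the RNA-binding proteins Tia1 and Tial1, 0.75 and 0.56), 3 transcription factors fell (Mycn, Mnt and Gabpa) and 3 p53 genes rose and 1 fell. Without S3 and S4 the DKO counts were 2 higher and 6 lower for initiation factors, 0 and 1 for chaperones, 2 and 3 for the mTORC1 and LARP1 list, 0 and 5 for transcription factors and 3 and 2 for p53 genes. In that fit 1 chaperone rose in Ikzf1 KO and 1 in Ikzf3 KO cells, 1 initiation factor rose in Ikzf3 KO cells, and 1 transcription factor fell in Ikzf1 KO and 3 in Ikzf3 KO cells. Of all 10032 genes 1701 were called higher there in DKO cells, 8.44% in Ikzf1 KO and 3.53% in Ikzf3 KO cells. The shares called lower without S3 and S4 are not given here, so the lower counts of that fit cannot be set against them.

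Other genes were set apart by length and level in the libraries with high ribosomal protein values. Non-member genes in the shortest quartile by exon length had median deviations of 0.01 in S3 and 0.24 in S4, and those in the longest quartile -0.04 and -0.22. For 134 non-member genes with a mean RPKM of at least 100 and an exon length up to the median of the members, the medians were -0.03 in S3 and 0.44 in S4. In S3 the ribosomal protein medians were 0.67, beside values near 0 in short, abundant other mRNAs. In S4 a shift of short mRNAs went along with the higher ribosomal protein values. The part of mRNA length and level in the ribosomal protein values was not tested for either library.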

How the data were processed

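RNA of cultured NK cells was sequenced from directional libraries, single-end 75 bp, about 20 megareads intended, per the labels' protocols. Per the submitters' processing notes, the tools were STAR and featureCounts, with limma 3.34.9, on mm10; settings are not given in the sources used here. The authors deposited RPKM for 11736 genes and no counts. Depth was recovered from the steps between values and exon lengths of GENCODE mouse release 21: 11291 genes (96.2%) gave whole reads within 0.02 read, 72 of the 75 members among them. Columns name the genotype only; they were matched to the cultured groups by group size, and 6 directly sorted samples of 21 were not analysed here.

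The 10032 genes that reached 1 RPKM in 3 or more of the 15 libraries were tested on log2(RPKM + 0.5) in limma 3.58.1 (R 4.3.3): 1 mean per group, mean-variance trend, robust moderation, 11 residual degrees of freedom, 6 contrasts, 2-sided, Benjamini-Hochberg over all genes of a contrast. P-values measure the spread between these libraries. The departure from additivity is DKO minus both single knockouts plus Cre only. The procedure was tested on simulated data. Ratios of paralogues were tested by exact permutation (scipy 1.17.1). Summaries and plots used pandas 2.3.3, numpy 2.4.6 and matplotlib 3.10.9 under Python 3.11.15.

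The members and gene lists were chosen with earlier results of these data known. Named genes were the members with a well-known role or a near copy, up to 5 called rises and falls per comparison, the 3 highest and lowest members per subunit, and up to 4 genes of each other list by adjusted p; those of most interest are shown, and some genes that fall under the rule are not reported here. Alternatives changed the pseudocount, filter, scaling, variance model and libraries. Intervals for single values were not computed; spread between libraries is given as SD.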

Additional observations from a re-analysis of the deposited data

Results flagged for a closer look

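Of 90 groups of 4 libraries, each the values of a reported gene or subunit sum in 1 genotype, 2 held a library far from the other 3 by Dixon's test; chance alone flags about 1 in 20. Rpl11 in S19 of the Cre only group stood at 301 RPKM, against 347 to 350.0 in the other 3. Rpl17 in S19 stood at 1418 RPKM, against 1741 to 1758 in the other 3 Cre only libraries. S19 had the lowest Cre only median for both subunits (-0.19 and -0.16).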

How the results depend on the processing

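Counts of called members moved with most settings. Each pair is the large and the small subunit, in either direction. The share of all genes called also moves with the setting and is not given here for most. These counts are therefore not results about the members. Against Cre only all called members were higher, except Rpl38 (Ikzf1 KO, array weights) and Rpl23a (DKO, only the groups compared). In Ikzf1 KO against Cre only cells the counts were 1 and 2 with quantile normalization, 3 and 4 with only the groups compared, 2 and 4 with array weights, 1 and 1 without S3 and S4 and 1 and 2 without the Ikzf3 KO group; the small subunit median was 0.16 with quantile normalization. In Ikzf3 KO against Cre only cells they were 4 (large) with median-ratio scaling and without trend and robust moderation, 8 and 5 with quantile normalization, 1 and 0 centred on the members, with only the groups compared, without S3 and S4 and without S18 and S19, and 0 and 0 without S16 and S17. In DKO against Cre only cells they were 5 and 9 with quantile normalization, 3 and 9 with only the groups compared, 3 and 6 with array weights, 6 and 10 without S3 and S4, 6 and 11 without the Ikzf3 KO group and 0 (small) without S16 and S17; centred on the members the medians were -0.13 and -0.05. In DKO against Ikzf1 KO cells they were 1 and 1 with quantile normalization, 3 and 2 with only the groups compared, 3 and 2 with array weights, 5 and 4 without S3 and S4 and 5 and 5 without the Ikzf3 KO group; centred on the members the large subunit median was -0.03. In DKO against Ikzf3 KO cells the large subunit count was 1 with a pseudocount of 0.1 or 2 or an RPKM of at least 5. It was also 1 with median-ratio scaling or quantile normalization, and the gene called in all of these was Rpl41, lower in DKO. With array weights or without S3 and S4 the 1 gene was Rpl31, higher in DKO. Centred on the members Rpl31 was called higher and Rpl41 lower. The large subunit count was 0 with only the groups compared, without S16 and S17 or without S18 and S19. The small subunit count was 4 with quantile normalization, 3 without S3 and S4, and 1 centred on the members or with array weights. All of these were higher in DKO. Without trend and robust moderation it was 1, Rps2, lower in DKO. The large subunit count for the departure from additivity was 1 with quantile normalization (Rpl41, below additivity), and 1 with array weights and without S3 and S4 (Rpl13a-ps1, above additivity, 1.23 without S3 and S4). Array weights stopped before full convergence.

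Leaving out 1 library at a time gave 0 to 0 and 0 to 1 calls in Ikzf1 KO against Cre only, 1 to 39 and 0 to 28 in Ikzf3 KO against Cre only, 0 to 3 and 0 to 6 in DKO against Cre only, 0 to 0 and 0 to 1 in DKO against Ikzf1 KO, 0 to 18 and 0 to 10 in DKO against Ikzf3 KO, and 0 to 1 and 0 to 0 for the departure from additivity. Each range counts calls in either direction, and the share of all genes called moved as well. In Ikzf3 KO against Cre only cells 14.2% of all genes were called higher without S1 and 3.76% without S3. The medians kept their sign in these fits in all 6 comparisons, except the small subunit in Ikzf1 KO against Cre only cells (-0.04 to 0.07). They ran from 0.27 to 0.73 and 0.32 to 0.82 in Ikzf3 KO against Cre only cells and from -0.60 to -0.15 and -0.62 to -0.11 in DKO against Ikzf3 KO cells.

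Of the named genes, Rpl22l1 in Ikzf1 KO against Cre only cells turned to -0.04 without S17 (-0.04 to 0.21 over single libraries left out) and to -0.12 without S16 and S17. Rpl22 in Ikzf3 KO against Cre only cells turned to -0.08 centred on the members, -0.06 with array weights and -0.10 without S3 and S4. The causes were not tested. Median-ratio scaling moved no mean subunit sum beyond its SD. Leaving out members that fail the filter could not be tried, since none failed. No paired analysis was possible because the columns carry no replicate numbers. Depth limits the weakest members, such as Rpl39l with 0 to 38 reads.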
